A study of Mus musculus with 8 samples.

Results

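Conventional dendritic cells are the antigen-presenting cells that take up material in a tissue and show peptides of it to T cells. In these mouse lungs, 126 of 11806 cells (1.07%, exact binomial 95% interval 0.890 to 1.27) were taken as such. The cells were selected on their own measured counts of unique molecular identifiers (UMIs), each of which stands for 1 captured RNA molecule. A member had at least 30 UMIs of the major histocompatibility complex (MHC) class II chains H2-Aa, H2-Ab1 and H2-Eb1 together and at least 1 UMI of Flt3, the receptor for the growth factor of dendritic cells. It had 0 UMIs of the B cell gene Cd79a and under 5 UMIs of the macrophage genes C1qa, C1qb and C1qc together. Cells with UMIs of both Ccr7 and Fscn1, which mark dendritic cells on their way to the lymph node, were left out. Members were then split by Xcr1 and Clec9a, receptors of type 1 conventional dendritic cells (cDC1): 88 had at least 1 UMI of either gene and 38 had none.

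The cells came from the lungs of 5-day-old C57BL6/J wild-type pups, 4 libraries from pups kept in air with 21% O2 and 4 from pups kept in hyperoxia with 65% O2 from birth, a model of the lung disease of preterm infants. Pups of both groups had been exposed to lipopolysaccharide (LPS) before birth, at day 14 of gestation, so no group was free of it. Lungs were frozen, thawed and sorted by flow cytometry into endothelial, epithelial and immune cells before droplet capture, so a share of cells below is a share of what was sorted and captured. The labels do not say whether 1 library was 1 animal. The count table pools all libraries, and its column names match the label of 0 of the 8 libraries, so air and hyperoxia were not compared. For the same reason the table is 1 sample here: folds below are descriptions, no test was possible between conditions, and every interval in brackets covers counting error only.

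Type 1 conventional dendritic cells (cDC1) are known for taking up dead cells through Clec9a and for showing their peptides on MHC class I to CD8 T cells, and they depend on the transcription factors Irf8 and Batf3. Type 2 cells (cDC2) carry Sirpa and often Cd209a, depend more on Irf4, Zeb2 and Klf4, and mainly show peptides on MHC class II to CD4 T cells. In the lung both lie in and under the airway lining, and cDC1 there carry the integrin Itgae, known as CD103.

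The promoters of genes on which the members were chosen, or on which they were split, are shown first, because the class II chains belong to a set known to be switched on together through the coactivator Ciita. The sequences are from RefSeq on GRCm38.p6, 250 bases before and 50 after the annotated start, 5′ to 3′ in the direction of the gene. Of the 24 genes of the class II pathway list with the 3 chains added, 16 had an entry, and H2-Ab1 had none. The first 3 are class II genes, H2-Aa at chr17:34287774-34288073 on the minus strand, H2-Eb1 at chr17:34305617-34305916 on the plus strand and H2-DMb1 at chr17:34152941-34153240 on the plus strand. Capitals mark TGATTGG, the core of the Y box, in each of the 3, and TGACGTCA, a cyclic AMP response element, in H2-Aa. In H2-Eb1 and H2-DMb1 they also mark the longest run of letters that these 2 promoters share.
H2-Aa: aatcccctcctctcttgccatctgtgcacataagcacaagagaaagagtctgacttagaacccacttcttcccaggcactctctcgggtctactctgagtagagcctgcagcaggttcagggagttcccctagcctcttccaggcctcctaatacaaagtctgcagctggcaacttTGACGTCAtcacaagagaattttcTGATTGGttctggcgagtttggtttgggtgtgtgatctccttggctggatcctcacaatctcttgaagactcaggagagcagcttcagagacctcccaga
H2-Eb1: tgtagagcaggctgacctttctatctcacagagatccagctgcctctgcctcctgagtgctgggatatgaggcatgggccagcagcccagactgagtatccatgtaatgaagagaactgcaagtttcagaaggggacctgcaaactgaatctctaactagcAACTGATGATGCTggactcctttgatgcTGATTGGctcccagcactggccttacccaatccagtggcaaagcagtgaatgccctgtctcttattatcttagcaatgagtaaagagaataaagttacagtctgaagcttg
H2-DMb1: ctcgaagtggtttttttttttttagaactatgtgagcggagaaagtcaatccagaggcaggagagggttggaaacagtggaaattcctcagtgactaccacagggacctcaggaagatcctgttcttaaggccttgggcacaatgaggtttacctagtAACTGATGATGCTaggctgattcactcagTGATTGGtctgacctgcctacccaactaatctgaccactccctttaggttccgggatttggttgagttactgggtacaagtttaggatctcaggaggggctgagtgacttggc

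TGATTGG began 50 bases before the start of H2-Aa, 61 before that of H2-Eb1 and 63 before that of H2-DMb1. Searched on both strands, it was found in 7.82% of 32851 promoters of the same length and in 7 of the 16 class II pathway genes with an entry, which were H2-Aa, H2-Eb1, H2-DMb1, H2-DMb2, H2-Oa, H2-Ob and Rfx5. TGACGTCA was in 1.79% of all promoters and in 1 of the 16. The 13-base run shared by H2-Eb1 and H2-DMb1 does not overlap TGATTGG. It was in 3 of the 32851 promoters, which by its choice include the 2 from which it was picked. TGANTCA, a looser form of the AP-1 motif with any base at N, was also searched and is not capitalised. It was in 7.81% of all promoters. In H2-DMb1 it read tgattca and began 75 bases before the start, where it overlaps none of the others. These are matches of letters and no measure of binding.

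The next promoters are those of the genes that split the members, Xcr1 at chr9:123861980-123862279 on the minus strand and Clec9a at chr6:129408612-129408911 on the plus strand, and of the cDC2 marker Cd209a at chr8:3748935-3749234 on the minus strand. Capitals mark GGAAGT, the core that the myeloid factor PU.1 (encoded by Spi1) is known to bind.
Xcr1: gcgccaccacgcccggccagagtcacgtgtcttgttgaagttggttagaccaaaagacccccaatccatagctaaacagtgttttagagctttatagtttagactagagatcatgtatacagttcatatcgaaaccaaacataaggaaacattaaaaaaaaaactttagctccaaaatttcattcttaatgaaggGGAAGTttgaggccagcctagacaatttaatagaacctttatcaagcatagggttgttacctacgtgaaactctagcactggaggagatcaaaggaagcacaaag
Clec9a: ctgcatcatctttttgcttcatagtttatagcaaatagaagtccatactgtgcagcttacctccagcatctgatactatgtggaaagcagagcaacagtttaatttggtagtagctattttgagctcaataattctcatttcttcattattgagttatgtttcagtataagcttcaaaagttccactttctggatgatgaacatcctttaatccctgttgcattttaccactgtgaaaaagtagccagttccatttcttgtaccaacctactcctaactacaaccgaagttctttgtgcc
Cd209a: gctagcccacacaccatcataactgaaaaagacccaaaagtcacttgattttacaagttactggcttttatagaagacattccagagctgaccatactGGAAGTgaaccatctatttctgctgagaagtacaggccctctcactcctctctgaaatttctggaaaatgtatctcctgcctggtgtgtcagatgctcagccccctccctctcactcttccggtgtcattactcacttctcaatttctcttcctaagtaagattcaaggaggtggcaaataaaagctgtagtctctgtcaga

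GGAAGT was found in 23.8% of all promoters on either strand, in 13 of the 26 cDC1 genes and 10 of the 25 cDC2 genes with an entry, among them Xcr1 and Cd209a. No letters were capitalised in Clec9a, whose window held none of the motifs searched.

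The members were checked against the 5 markers of the label. Flt3 and H2-Ab1 were used by the rule and are described only. Flt3 was at 209 CPM (UMIs per 1000000 UMIs of the set of cells) in the members, with 71 cells at exactly 1 UMI and 55 at 2 or more. H2-Ab1, H2-Aa and H2-Eb1 were at 5373, 5003 and 4649 CPM, and the 3 chains together took a median of 1.47% of the UMIs of a member (0.368% to 3.26%). Clec9a was found in 84 members, Xcr1 in 47 and Cd209a in 11. Among the cells that the rule kept, the label therefore fits mostly through its cDC1 markers, and a cDC2 marker was found in few cells. The rule kept 11 of all 68 cells with Cd209a, so this describes the members and not the lung.

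Depth differed between the sets of cells. The members had a median of 7064 UMIs (2300 to 34711) against 4395.5 in the 11680 other cells, and the 88 cells with Xcr1 or Clec9a had a median of 7902 against 4714 in the 38 without. At the limit of the rule, 9 members had 30 to 39 class II UMIs. Their Irf8, the transcription factor that cDC1 need, was at 645 CPM, and their Cst3, the protease inhibitor cystatin C that dendritic cells carry at a high level, at 8585 CPM. Just outside lay 1 cell with 20 to 29 class II UMIs, with neither gene detected, and 5 cells with 15 to 19, with Irf8 at 214 and Cst3 at 961 CPM. In those 5 cells Clec9a was at 374 CPM and Xcr1 and Cd209a at 53.4 each. These lay near the 409 CPM of Clec9a and 64.5 CPM of Xcr1 and Cd209a in the 9 members. In the 1 cell with 20 to 29 class II UMIs none of these 3 markers was detected. With so few cells outside, whether the limit parts cells by these 3 markers cannot be told. Of the cells split off as positive, 25 had exactly 1 UMI of Xcr1 and Clec9a together and 63 had 2 or more.

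The 8 libraries could not be told from each other, but the table held 8 stretches of columns in which the barcodes run in alphabetical order, called runs here. They carry 7 kinds of suffix, 12 barcodes occur in more than 1 run and none of these is a member. Runs 1 to 8 held 13, 4, 10, 9, 17, 11, 54 and 8 members. As a share of the cells of a run, members lay between 0.541% in run 4 and 2.39% in run 8. Run 7 gave 54 of the 126 members, at 1.61% of its cells (1.21 to 2.09). Since CPM are sums of UMIs, depth weighs too: run 7 gave 30.3% of the members' UMIs and run 1, with 13 deep cells, 23.5%. Among cells with Xcr1 or Clec9a run 1 gave 27.0% and run 7 23.8%, and among cells with neither run 7 gave 58.8%. The share with Xcr1 or Clec9a was 33.3% of 9 members in run 4, 59.3% of 54 in run 7 and 64.7% of 17 in run 5, and from 87.5% to 100% in the others. Of the 38 members with neither gene, 22 were in run 7.

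**Figure D1:**
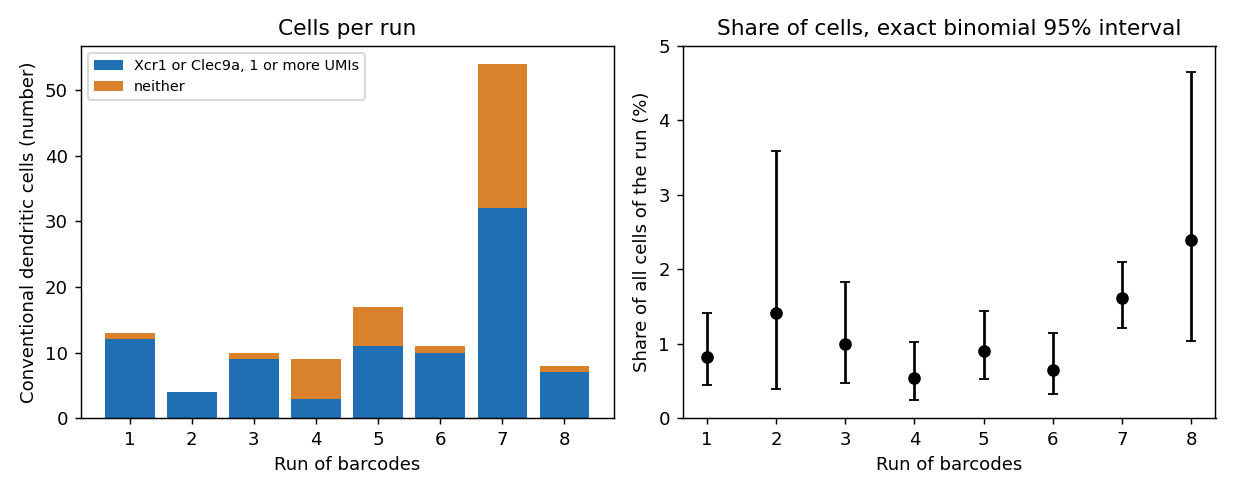
Left, the number of conventional dendritic cells in each of the 8 runs of barcodes, split by detection of Xcr1 or Clec9a; right, their share of all cells of the run with exact binomial 95% intervals. Run 7 holds 54 of the 126 cells, and the share lies between 0.541% and 2.39%.

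Xcr1 or Clec9a was detected in 69.8% of the members (61.0 to 77.7) and in 1.66% of all other cells (1.44 to 1.91). After each cell was thinned to 3000 UMIs, which 122 members reached, the share was 54.9% (45.7 to 63.9) against 1.14%. Of 461 endothelial cells, taken as cells with Cdh5 and Cldn5 and no Ptprc, 8.46% had a UMI, all through Clec9a, at a median depth of 2804 UMIs. In epithelial cells, with Epcam and Sftpb and no Ptprc, the share was 0.219% of 457 at a median depth of 6944 UMIs. Xcr1 was in 0 of the 461 endothelial cells (exact binomial upper limit 0.797%). The share in the members lay above both levels. The endothelial share lay above that of the deeper epithelial cells, so it cannot be read as a background level. Its source was not tested.

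Against all other cells, genes of cDC1, of the class II loading machinery and the transcription factors Irf8 and Batf3 were higher in the members. Of 7128 genes with at least 20 CPM in either set, leaving out those of the rule, 173 (2.43%) were at least 4-fold higher in the members and 849 (11.9%) at least 4-fold lower. Counts of list genes against all other cells below stand beside these 2 shares. At 100 CPM or more, Xcr1, Clec9a and the adhesion gene Hepacam2 had the largest folds. Genes of neutrophils and of the surfactant-making epithelium, such as Retnlg at 0.842 against 199.7 CPM and Sftpb at 2.53 against 558, were among the lowest. The other cells include the neutrophils, macrophages and epithelium of the sort, so the folds depend on that mixture.

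Xcr1, the receptor through which cDC1 find CD8 T cells and natural killer cells, was at 128 CPM (108 to 150.0) against 0.633 CPM (0.467 to 0.839), 202-fold. Over the 8 runs its level in members was 56.7 CPM at the lowest, 100.4 at the median and 338 at the highest. In other cells Xcr1 was at 0 to 1.55 CPM over the runs. Without run 7 the fold was 360, and after thinning it was 123. Clec9a, which binds the actin of dead cells, was at 247 CPM (219 to 277) against 3.69, 66.8-fold (56.5 to 79.0). Its runs lay at 164, 193 and 539 CPM as lowest, median and highest, and the highest run of other cells at 4.996 CPM. Both genes have the largest folds in these same cells, so their levels by run are a description only.

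Among the 20 genes with the largest folds at 100 CPM or more, each was higher in the members in 8 of 8 runs. They were picked by their fold in these same cells, so this is a description and no separate support. Hepacam2 was at 162 CPM, 52.2-fold, and Ifi205, an interferon-inducible gene of the Ifi200 family, at 362 CPM, 31.0-fold. Tlr3, the sensor of double-stranded RNA, was at 136 CPM, 21.5-fold, and Itgae, the integrin of CD103+ lung dendritic cells, at 145 CPM, 20.6-fold. These are all known genes of cDC1. Tnni2, a troponin of fast muscle, was at 266 CPM, 16.4-fold, and the retrotransposon-derived genes Rtl8a and Rtl8b at 203 and 140 CPM, 13.8-fold each. Rtl8a and Rtl8b are close copies, so how reads were shared between them is uncertain. P3h2, a collagen prolyl hydroxylase, Ust, a sulfotransferase, and Txndc16, of the thioredoxin family, were 15.9-fold, 14.2-fold and 14.0-fold higher. Weighting each cell equally gave 8.52-fold for Ust. Htr7, a serotonin receptor, was at 233 CPM, 10.7-fold, and Jaml, an adhesion molecule of leukocytes, at 153 CPM, 10.4-fold.

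**Figure D2:**
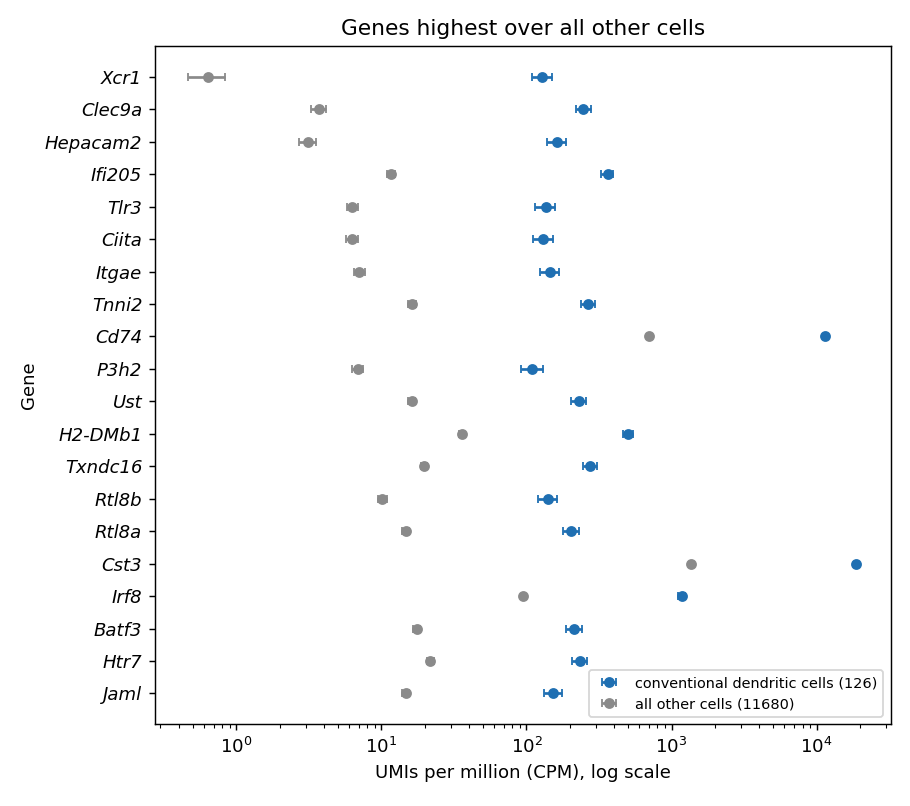
The 20 genes with the largest fold in conventional dendritic cells (126 cells) over all other cells (11680), at 100 CPM or more; points are CPM on a log axis and bars are exact Poisson 95% intervals. Xcr1 lies at 128 against 0.633 CPM. No interval of the 2 sets overlaps for any gene shown, which largely follows from choosing the genes by their fold in these cells.

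Core genes of conventional dendritic cells were largely higher. Of the 24 core genes compared, 10 were at least 4-fold higher, beside 2.43% of all genes compared, and 0 at least 4-fold lower. The median log2 fold was 1.88 against -0.32 over all genes compared. Cst3 was at 18766 CPM (18520 to 19014) against 1363, 13.8-fold, and its runs lay between 13436 and 24473 CPM. Zbtb46, a factor found in conventional dendritic cells and in endothelium, was at 66.5 CPM against 7.85, 8.48-fold. It was found in 35.7% of members and in 25.2% of endothelial cells. Naaa, a lipid-cleaving hydrolase, was 8.23-fold higher, the creatine kinase Ckb 7.28-fold, and the receptor tyrosine kinase Kit 6.14-fold. Itgax, which encodes CD11c, was at 91.8 CPM against 73.2, and Spi1 at 268 against 351, far smaller differences than those of Cst3 or Zbtb46.

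Genes of cDC1 had the larger folds, though Clec9a and Xcr1 themselves also define the split below. Of the 28 compared, 23 were at least 4-fold higher and 0 at least 4-fold lower, with a median log2 fold of 3.70. Tlr11, a receptor for microbial profilin, was at 41.3 CPM against 0.290, 142-fold. Gcsam, a signalling protein known from germinal centre B cells, was at 53.9 CPM, 128-fold, and 226-fold without run 7. Wdfy4, needed for cross-presentation of cell-bound antigen, was at 1107 CPM, 8.49-fold, with runs from 503 to 1989 CPM against 72.4 to 176 in other cells. Cadm1, an adhesion molecule, was at 561 CPM, 6.51-fold. Btla, an inhibitory receptor, was at 113 CPM, 10.3-fold, and 17.9-fold without run 7. The scavenger receptor Cd36 and the endocytic receptor Ly75, also on the list, were at 200.4 against 277 CPM and at 37.9 against 72.7.

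Genes of cDC2 were mixed. Of 25 compared, 2 were at least 4-fold higher, Cd209a and Mgl2, and 11 at least 4-fold lower, beside 2.43% and 11.9% of all genes. Their median log2 fold was -1.57. Cd209a, a lectin of cDC2, was at 49.7 CPM against 2.32, 21.4-fold, from 11 cells in 4 of the 8 runs, and 11.3-fold without run 7. Its family has close copies, and how reads were shared between them is uncertain. Mgl2, another lectin, came from 6 cells and was 5.94-fold higher, 2.97-fold without the cell richest in it. Sirpa was at 34.5 CPM against 379, and 21.1 times lower than in other cells without run 7, and Lyz2, the lysozyme of myeloid cells, 16.6 times lower. Ccr2, a receptor that both monocytes and dendritic cells use, was found in 81 members, at 265 CPM against 206.

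The transcription factors were mixed too, with a median log2 fold of -0.19 against -0.32 over all genes compared. Of 35 compared, 6 were at least 4-fold higher and 7 at least 4-fold lower, beside 2.43% and 11.9% of all genes. Irf8 was at 1173 CPM (1112 to 1236) against 95.1, 12.3-fold, with runs from 651 to 1918 CPM against 72.6 to 127. Batf3, its partner in cDC1, was at 213 CPM, 12.2-fold, and Mycl, a Myc family member that cDC1 use, at 53.0 CPM, 59.1-fold. Bcl11a and Cbfa2t3 were 4.35-fold and 4.02-fold higher. Id2, which holds back plasmacytoid fate, was at 1060 CPM, 3.78-fold. Cebpb and Zeb2, factors of monocytes and macrophages, were 11.6 and 8.17 times lower, and 24.2 and 18.7 times lower without run 7. Irf4 was at 11.8 CPM (6.44 to 19.8) against 6.78, from 8 cells.

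The class II loading machinery was higher in the members, though this list is tied to the rule, which asked for class II chains. Of 19 genes compared, 7 were at least 4-fold higher and 3 at least 4-fold lower, beside 2.43% and 11.9% of all genes. Cd74, the invariant chain that guides class II through the cell, was at 11372 CPM (11181 to 11565) against 701, 16.2-fold. Ciita was at 130.5 CPM, 20.8-fold. The peptide exchanger subunits H2-DMb1 and H2-DMa were 14.0-fold and 4.28-fold higher. H2-Ob and H2-Oa, whose product restrains that exchanger, were 27.4-fold and 12.6-fold higher, and H2-Ob was 44.2-fold higher without run 7. H2-DMb2, a close copy of H2-DMb1, was 5.63-fold higher, and 3.15-fold without run 1. The lysosomal proteases went the other way: Ctss was 3.06 times lower, Ctsb 5.51, Ctsl 6.25 and Ctsd 13.2 times lower, the last 35.8 times without run 7.

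For MHC class I and cross-presentation, 4 of 27 genes were at least 4-fold higher and 1 at least 4-fold lower. Over all genes the shares were 2.43% and 11.9%. Beside Wdfy4, the immunoproteasome subunits Psmb9 and Psmb8, which cut peptides for class I, were 5.36-fold and 4.36-fold higher, at 392 and 718 CPM. Rab43, a vesicle protein of cross-presenting cells, was 4.55-fold higher. The peptide transporter genes Tap1 and Tap2 were 3.07-fold and 3.04-fold higher. The class I chains themselves were not: H2-K1 was at 419 against 571 CPM, and B2m at 854 against 1408. Cybb, a subunit of the phagocyte oxidase, was 10.0 times lower, and 21.7 times without run 7.

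Among pattern recognition receptors, 2 of 26 were at least 4-fold higher, Tlr11 and Tlr3, and 15 at least 4-fold lower, with a median log2 fold of -2.85. Over all genes 2.43% were at least 4-fold higher and 11.9% at least 4-fold lower. Tlr12, the partner of Tlr11, had 19 UMIs in 16 members and 34 UMIs in all other cells, under the level set for comparison. Tlr4, the receptor for LPS, was at 3.37 CPM against 57.8, 17.2 times lower, and was found in 4 members. Tlr2, for bacterial lipopeptides, was 7.61 times lower, and 13.2 without run 7. Unc93b1, which carries nucleic acid sensors to the endosome, was at 353 CPM against 195. The macrophage receptor Mertk was 31.0 times lower, with 3 members positive, and 65.6 times lower without run 7.

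Of 24 cytokines and chemokines, 3 were at least 4-fold higher, beside 2.43% of all genes, and 8 at least 4-fold lower, beside 11.9%. The 3 were Cxcl9, Ccl22 and Il12b, which rested on 7, 4 and 4 cells and lay at 4.03-fold, 1.83-fold and 2.04-fold once the richest cell of each was left out. Without run 2 Cxcl9 was at 4.17-fold, and without run 8 Ccl22 was at 1.74-fold and Il12b at 2.10-fold; without run 7 the last 2 were at 14.2-fold and 19.0-fold. Cxcl16, a membrane-bound chemokine, was spread more widely, in 67 members, at 137 CPM against 39.0, 3.52-fold. Il1b was at 165 CPM against 462. Il12a, the other subunit of interleukin 12, was at 0 in the members (exact Poisson upper limit 3.11 CPM). Ccl5 was at 227 CPM, but from 4 cells, and 40.1 times lower than in other cells without run 1.

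Among receptors, 2 of 31 were at least 4-fold higher and 8 at least 4-fold lower, beside 2.43% and 11.9% of all genes. Cxcr3, which guides cells to Cxcl9, was at 52.2 CPM, 7.55-fold, and Gpr183, a receptor for oxysterols that places dendritic cells in lymphoid tissue, at 120.4 CPM, 4.48-fold. Ifngr1, a chain of the interferon gamma receptor, was at 314 CPM against 248. The rule left Ccr7 in where Fscn1 was at 0, and 2 members had Ccr7. The cell richer in it, in run 1, held 71 Ccr7 and 261 Ccl5 UMIs with 0 of Fscn1.

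Of 13 ligands and checkpoint genes, 1 was at least 4-fold higher and 1 at least 4-fold lower, beside 2.43% and 11.9% of all genes. Slamf7, a receptor of activated leukocytes, was at 162 CPM, 9.22-fold, with runs from 118 to 274 CPM against 4.74 to 32.4. Havcr2, known as TIM-3 and carried by cDC1, was 2.97-fold higher. Cd86, a costimulatory ligand, was at 280 CPM against 243, and Cd80 at 29.5 against 72.2. Cd40 was at 5.89 CPM in 5 cells, and Cd274, the ligand PD-L1, at 11.8 CPM against 89.5, 7.59 times lower.

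The study's title concerns type 2 immunity. Of 13 genes of type 2 immunity in dendritic cells, 2 were at least 4-fold higher, Ccl22 and Mgl2, both from few cells as given above. Another 4 were at least 4-fold lower, and over all genes the shares were 2.43% and 11.9%. Ccl17, a chemokine for type 2 helper cells, was at 15.2 CPM from 3 cells. The receptor chains Crlf2, for thymic stromal lymphopoietin, and Il4ra, for interleukin 4, were at 62.3 against 61.2 CPM and at 22.7 against 44.8. Arg1, Chil3 and Mrc1, genes of alternatively activated macrophages, were found in 2, 1 and 1 members. Of 12 tolerance genes, Ahr, a receptor for aromatic compounds, was 4.54-fold higher at 176 CPM, and 4 were at least 4-fold lower. Aldh1a2, which makes retinoic acid, was at 1.68 CPM in 2 cells.

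Of 29 cell cycle genes, 0 were at least 4-fold different in either direction, and Top2a or Mki67, found in dividing cells, was detected in 33 members. Of 19 interferon response genes, 2 were at least 4-fold higher, Ifi205 and Cxcl9, and 3 at least 4-fold lower, beside 2.43% and 11.9% of all genes. Of 21 immediate early and heat shock genes, which also respond to dissociation and thawing, 2 were at least 4-fold higher, Egr3 at 4.24-fold and Hspa1b at 4.38-fold, and Egr3 was 6.95-fold higher without run 1. Hspa1b has a close copy in Hspa1a, which was at 37.9 CPM. Of 31 adhesion and cytoskeleton genes, Itgae and Cadm1 were at least 4-fold higher and 2 were at least 4-fold lower, among them Cdh1, the epithelial cadherin, at 6.74 against 54.5 CPM. Tmsb4x, an actin-binding peptide, was at 35039 CPM against 14812.

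Markers of most other cells summed to less in the members than in the rest. The members held 123 CPM of 12 neutrophil markers (77.7 without run 8) against 7823 in other cells, 131 CPM of 15 epithelial markers against 11476, and 100.2 CPM of 15 T and innate lymphoid markers (63.6 without run 3) against 615. Of 16 interstitial macrophage markers 6 were at 0, and the sum was 130 CPM (80.7 without run 3) against 2402; the rule itself limited the C1q genes of this list. Mast cell and basophil markers were higher, at 119 CPM against 50.8, with 9 of 12 at 0 and Kit giving 117 of the 119 CPM. Sums nearer to those of other cells were 599 against 761 CPM for 18 migratory dendritic markers, 330 against 478 for plasmacytoid markers and 162 against 224 for B cell markers. Of 15 B cell markers 6 were at 0, among them Pax5 and Cd79a, the latter set to 0 by the rule. Of 16 plasmacytoid markers 4 were at 0, and Siglech, their surface lectin, was at 4.21 CPM. The 14 classical monocyte markers summed to 1371 CPM against 6872, carried by Plac8 at 737 CPM, Ccr2 and S100a4, while Vcan was at 0. Sftpc, the surfactant gene of epithelium, was at 70.7 CPM in 44 members against 9178 CPM in other cells. The part of RNA from other cells in these levels was not tested.

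The rule asked for Flt3, which is sparsely captured, so the cells that met every other condition but had 0 Flt3 UMIs were set beside the members. There were 195 of these, and 57 of them had Xcr1 or Clec9a. In the 57, Cst3 was at 20355 CPM, Irf8 at 1105 and Wdfy4 at 884, near the 20335, 1344 and 1255 CPM of the 88 members with Xcr1 or Clec9a, and their median depth was 5898 UMIs against 7902. Kit was at 26.7 CPM (13.3 to 47.7) there against 136 CPM, and Lyz2 at 2052 against 309. Over all 195 cells Sftpc reached 15245 CPM. Of all 252 cells with Flt3 in the table, 126 were members, and of all 282 cells with Xcr1 or Clec9a, 88 were. With 2 or more UMIs of Xcr1 and Clec9a it was 63 of 121. Of all 68 cells with Cd209a, 11 were members. Cd209a was found in 23 of the 195 cells (11.8%) against 8.73% of the members, and Sirpa in 48.2% against 15.1%.

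The closest other class II cells were set beside the members. Cd74 was at 11372 CPM in the members, 10786 in 11 migratory dendritic cells, which had Ccr7 and Fscn1, and 11326 in 129 C1q macrophages with class II. H2-Ob was at 50.5 CPM in the members and at 0 in both other sets, with exact Poisson upper limits of 30.9 CPM in the 11 migratory cells and 2.67 CPM in the macrophages. Ctss was at 435 CPM in the members, 1014 in migratory dendritic cells and 2398 in C1q macrophages. Irf8 was at 1173, 134 and 155 CPM, and Batf3 at 213, 251 and 81.8. Id2 was at 1060, 2129 and 196 CPM. Il12b and Ccl22 were at 1173 and 595 CPM in the migratory cells. These sets are defined by other genes of the same cells, so the values carry no test.

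**Figure D3:**
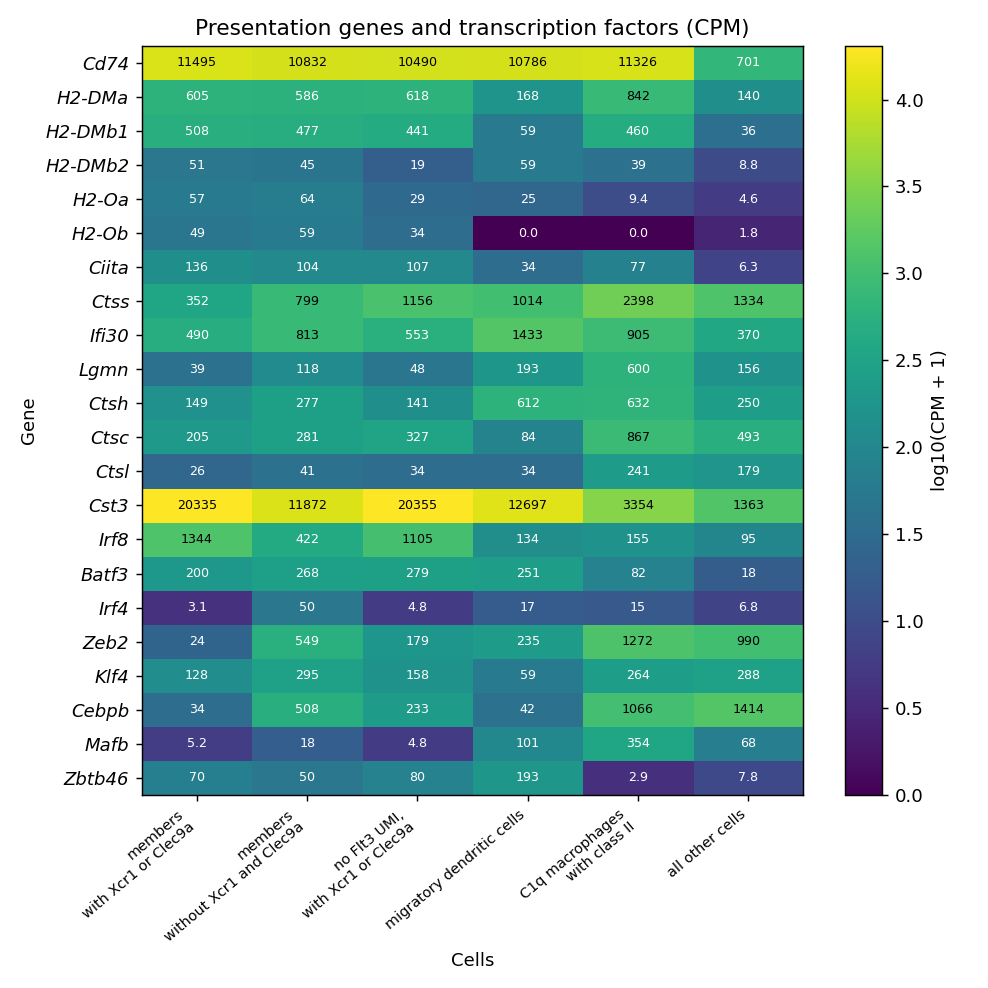
Levels in CPM (numbers) and log10(CPM + 1) (colour) of class II pathway genes, Cst3 and transcription factors in 6 sets of cells. Cd74 is at 11372 CPM in the members and 11326 in C1q macrophages, while Irf8 is at 1344 CPM in members with Xcr1 or Clec9a, 422 in members with neither and 155 in C1q macrophages.

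The members with Xcr1 or Clec9a were next compared with those with neither. The first carried more of the other cDC1 genes and of cell cycle genes, and the second more of the cDC2 genes, of chemokines and of Zeb2, Cebpb and S100a4. Of 3261 genes with at least 50 CPM in either subset, 238 (7.3%) were at least 2-fold higher in cells with Xcr1 or Clec9a and 307 (9.41%) at least 2-fold lower. Counts of list genes between the subsets below stand beside these 2 shares. The 38 cells with neither were sequenced less deeply, and 22 of them were in run 7, which weighs on all their sums. Runs with 3 or more cells of both kinds were runs 4, 5 and 7, and a count of runs below is of these 3.

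Of 21 cDC1 genes compared, 12 were at least 2-fold higher and 0 at least 2-fold lower in cells with Xcr1 or Clec9a, with a median log2 fold of 1.27 against 0.01 over all genes. Irf8 was at 1344 CPM (1272 to 1419) against 422, 3.18-fold. Wdfy4 was 2.74-fold and Cadm1 2.69-fold higher. Ifi205 was 3.40-fold, Hepacam2 3.75-fold and Itgae 3.69-fold higher. Itgae was higher in 3 of 3 runs and Hepacam2 in 2 of 3. Without run 7 Ifi205 was at 2.41-fold and without run 4 at 5.39-fold. Batf3 was at 200.5 CPM against 268, with a fold interval of 0.56 to 1.02. Of 23 core genes compared, 3 were at least 2-fold higher and 6 at least 2-fold lower, with a median log2 fold of -0.11. Naaa and Kit, among the 3 higher, were 2.31-fold and 4.29-fold higher, Kit 6.56-fold without run 5.

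Of 20 cDC2 genes compared, 0 were at least 2-fold higher and 14 at least 2-fold lower, with a median log2 fold of -2.71. Cd209a was at 3.10 CPM (0.639 to 9.06) against 254 (192 to 330), 82.0 times lower, 27.1 times without run 7 and 23.2 times after thinning. It was found in 1 of 88 and 10 of 38 cells, and after thinning in 0 of 87 and 9 of 35. Sirpa was at 3.10 CPM against 173, in 3 and 16 cells, 55.6 times lower, and 25.6 times with each cell weighted equally. S100a4, a calcium-binding protein, was at 54.8 against 917 CPM, 16.7 times lower, and 30.5 times without run 3. Zeb2 was at 23.8 against 549 CPM, 23.1 times lower, 9.29 times without run 7 and 9.67 times after thinning. Fcer1g, the signalling chain of Fc receptors, was at 213 against 1044 CPM. Lyz2 was 1.66 times lower, and at a fold of 1.0005 without run 7. Notch2, on which cDC2 depend, was at 244 against 281 CPM.

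The cells could be placed by the share of their UMIs from each list. With Xcr1 and Clec9a left out, the cDC1 list took a median of 0.675% of UMIs in the 88 cells and 0.239% in the 38. The cDC2 list took 0.172% and 0.451%, against a median of 1.06% in all other cells, so the list is richer in the other cells than in either subset. The cDC1 list took 0.0823% there. The cDC1 share was above the cDC2 share in 85 of the 88 cells and in 17 of the 38. All 88 had a UMI of Itgae, Tlr3, Ifi205 or Cadm1. Of the 38 cells, 19 had Cd209a or Sirpa and 13 had Itgae, Tlr3, Ifi205 or Cadm1 with neither of these. The 38 cells thus held cells with UMIs of cDC2 genes and cells with UMIs of cDC1 genes, and cannot be read as cDC2 alone. Among all other cells, Cd209a was in 0.488%, Itgae in 2.45%, Tlr3 in 3.42% and Ifi205 in 3.72%. Cadm1 was in 14.4% of them and Sirpa in 59.7%, so a UMI of Sirpa alone does not set a cell apart. Of the 19, 8 had UMIs of both kinds, and 6 of the 38 had none of the 6 genes.

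**Figure D4:**
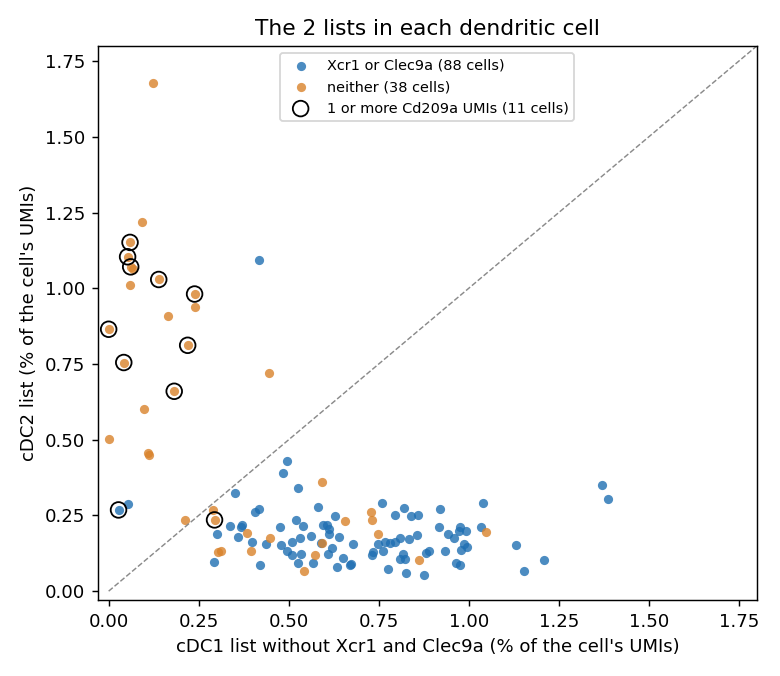
Each conventional dendritic cell by the share of its UMIs from the cDC1 list without Xcr1 and Clec9a (x axis, %) and from the cDC2 list (y axis, %); circles mark the 11 cells with Cd209a and the dashed line is equality. Of the 88 cells with Xcr1 or Clec9a 85 lie under the line, and of the 38 with neither 17 do.

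The 15 genes with the largest folds toward cells with Xcr1 or Clec9a held cell cycle genes beside cDC1 genes. Dppa5a led the list at 300 CPM against 0, but 283 of its UMIs came from 1 cell in run 3 and the other 7 positive cells held 1 each. Top2a, a DNA topoisomerase, was at 100.3 against 18.2 CPM, 5.52-fold (2.09 to 20.7), and 11.2-fold without run 8. Pclaf, a PCNA partner, was at 128 against 27.2 CPM, 4.70-fold, and Cks1b, a kinase subunit, 3.87-fold higher, 5.98-fold without run 8. With each cell weighted equally these 2 were at 2.45-fold and 2.16-fold, and after thinning at 13.7-fold and 5.83-fold, with Top2a at 13.3-fold. Of 11 cell cycle genes compared, 6 were at least 2-fold higher and 0 lower, beside 7.3% and 9.41% of all genes. Birc5 was at 68.2 CPM against 0, at least 5.01-fold with a floor of 3 counts over the group. Top2a or Mki67 was detected in 28 of the 88 cells and 5 of the 38. After thinning, Top2a was in 12 of 87 and 1 of 35, so this difference rests on few cells.

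The others of the 15 are not cell cycle genes. Btla was 4.13-fold higher, at 131 against 31.8 CPM. Lrrk2, a large kinase, was at 241 against 54.5 CPM, 4.42-fold, and 7.58-fold without run 7. Gng12, a G protein subunit, was 6.37-fold higher, 4.24-fold without run 7, and Ccser1, of unclear role, 6.60-fold, 10.5-fold without run 7. Ppfibp2, a liprin, was 4.75-fold higher, 14.0-fold without run 7. Mllt3, a chromatin reader, and Eif2s1, a translation initiation factor, were 4.51-fold and 3.98-fold higher, Eif2s1 6.31-fold without run 1. Ust was 3.64-fold higher, and 6.33-fold without run 7. After thinning Ccser1 was at 12.9-fold, Lrrk2 at 10.5-fold and Mllt3 at 2.51-fold, and with each cell weighted equally Gng12 was at 10.9-fold. Btla, Lrrk2 and Ppfibp2 were higher in 3 of 3 runs, and Gng12, Ccser1, Mllt3, Eif2s1 and Ust in 2 of 3.

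Of 14 cytokines and chemokines compared between the subsets, 2 were at least 2-fold higher and 9 at least 2-fold lower in cells with Xcr1 or Clec9a. Over all genes the shares were 7.3% and 9.41%. Ccl5 was at 9.30 against 1185 CPM, but 261 UMIs came from the single cell of run 1 that also carried Ccr7, and no other of the 38 had a UMI. Ccl9 was at 0 against 127 CPM, at least 41.0 times lower, in 9 of the 38 cells, at least 16.3 times without run 7 and at least 10.8 times after thinning. Ccl6 was at 48.6 against 1185 CPM, of which 214 UMIs were in 1 cell, and 4.39 times lower without that cell. Cxcl2, a chemokine for neutrophils, was at 5.17 against 173 CPM from 3 and 4 cells, 33.4 times lower, 4.06 times without run 7 and 153 times without run 8. Il1b was at 95.1 against 472 CPM, in 25 and 15 cells, 4.97 times lower, 8.08 times without run 1 and 2.89 times without run 7. The 2 genes at least 2-fold higher were Ccl4, at 208 against 99.9 CPM, which was at 0.951-fold without run 7 and 4.09-fold without run 4, and Cxcl9, at 56.8 CPM in 7 cells against 0, a bound of 4.17-fold that came to 1.0018-fold without run 2.

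Further genes were higher in the cells with neither receptor. Cybb was at 12.4 against 363 CPM, in 5 and 18 cells, 29.3 times lower with Xcr1 or Clec9a, 14.0 times without run 7 and 46.5 times without run 1. Capg, an actin-capping protein, was 23.2 times lower, 13.9 without run 1 and 72.7 without run 3. Cebpb was 14.9 times lower, and 8.13 without run 7. AA467197 was 20.5 times lower, 4.65 without run 1 and 57.9 without run 8, and Rgcc, a cell cycle regulator, was at 11.4 against 227 CPM, 5.93 times lower without run 1, 39.4 without run 5 and 40.6 without run 7. Wfdc17, a small secreted protein, was 13.6 times lower, 22.6 times without run 2, but 1.43 times without run 7. Ctsd was 12.8 times lower, with 61 UMIs in 1 cell, 1.65 times lower without it and 2.03 times without run 7. After thinning to 3000 UMIs Capg was 9.95 times lower, Cebpb 7.65, AA467197 3.73, Rgcc 4.97, Ctsd 3.42 and Wfdc17 29.8 times lower. The folds of the cDC1 genes Irf8, Wdfy4 and Cadm1 moved by less than 1.5 times when any 1 run was left out.

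Class II pathway genes lay close in both subsets, though the rule asked every cell of both for at least 30 UMIs of class II chains. Of 17 genes compared, 0 were at least 2-fold higher and 3 at least 2-fold lower, and the median log2 fold was -0.28. Cd74 was at 11495 against 10833 CPM (10402 to 11276), H2-DMb1 at 508 against 477, H2-DMa at 605 against 586 and Ciita at 136 against 104. The 3 lower genes were proteases, Ctss at 352 against 799 CPM, Lgmn at 39.3 against 118 and Ctsd. For class I, 2 of 22 were at least 2-fold higher, Wdfy4 and Rab43, and 3 at least 2-fold lower, Cybb, Rac2 and Syk, beside 7.3% and 9.41% of all genes. Rab43 was 2.43-fold higher. Psmb8 was 1.59-fold higher, and H2-K1 was at 389 against 554 CPM.

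Of 29 transcription factors, 2 were at least 2-fold higher, Irf8 and Mycl, a share near the 7.3% of all genes, 6 at least 2-fold lower, beside 9.41% of all genes, and 21 passed neither limit. Mycl was at 64.1 CPM in 36 cells against 4.54 CPM in 1 cell, 14.1-fold (2.44 to 566), and 1.48-fold as a bound without run 7. Irf4 was at 3.10 CPM in 2 cells against 49.9 in 6 cells, just under the level set for comparison. Klf4 was at 128 against 295 CPM and Irf1, an interferon-induced factor, at 47.5 against 209, 4.39 times lower and 9.67 without run 2. Relb, Nfil3, Zeb2 and Cebpb made up the 6, and Relb was 1.65 times lower without run 1 and 4.52 without run 7. Among receptors, 1 of 18 was at least 2-fold higher and 4 at least 2-fold lower, beside 7.3% and 9.41% of all genes. The higher gene was Cxcr3, at 63.0 CPM in 33 cells against 4.54 in 1, and 2.17-fold as a bound without run 7. Ccr2 was at 245 against 354 CPM.

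Of 12 interferon response genes, 3 were at least 2-fold higher, Ifi205, Cxcl9 and Stat2, and 4 at least 2-fold lower, beside 7.3% and 9.41% of all genes. The lower genes were Ifitm3, an inhibitor of virus entry, at 191 against 1339 CPM, Ifitm2 at 159 against 495, Ifi27l2a at 154 against 663, and Xaf1. Ifitm3 was 4.55 times lower without run 7 and 8.26 times without run 3. Of 17 immediate early and heat shock genes, 1 was at least 2-fold higher, Egr3, 3 at least 2-fold lower, Ier3, Atf3 and Zfp36, and 13 passed neither limit. Zfp36, which speeds the decay of cytokine messages, was at 501 against 1140 CPM, and Fos, inside the limits, at 1654 against 2710. Of 28 adhesion and cytoskeleton genes, S100a6 was at 253 against 1671 CPM (4.25 times lower without run 1) and S100a10 at 430 against 981, while the tetraspanin Cd81 was 3.24-fold higher.

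Markers of other cells differed between the subsets. The 14 classical monocyte markers summed to 1047 CPM with Xcr1 or Clec9a and 2797 CPM with neither, and 3 were at 0 in each subset. Without run 7 the endothelial sum of the cells with neither was 66.2 CPM, and without run 1 their alveolar macrophage sum was 701 CPM. Without run 3 the interstitial macrophage sum of the cells with Xcr1 or Clec9a was 46.5 CPM. In the members as a whole the monocyte sum ran from 874 to 1832 CPM over the runs. The 16 alveolar macrophage markers summed to 122 and 1167 CPM, and the 16 interstitial macrophage markers to 112 and 209. The 14 endothelial markers summed to 52.7 and 331 CPM. Epithelial markers summed to 124 and 163 CPM. The part of these cells in the differences was not tested.

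**Figure D5:**
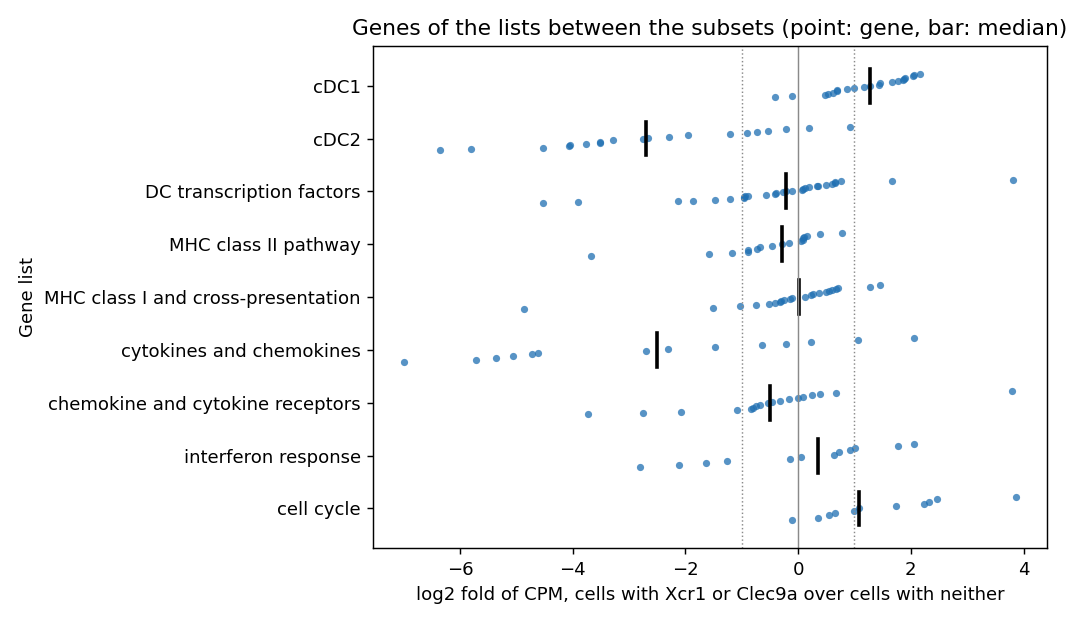
Log2 fold of CPM between members with Xcr1 or Clec9a and members with neither, for the genes of 9 lists at 50 CPM or more in either subset (points), with the median of each list (bars) and dotted lines at 2-fold. The median is 1.27 for cDC1 genes, -2.71 for cDC2 genes and -0.28 for class II genes; a gene at 0 in a subset is placed at its bound of 3 counts.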

How the data were processed

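Single-cell RNA libraries of sorted lung cells were analysed as the authors' deposited table of raw UMI counts, 32285 genes by 11806 cells; reads had been processed with Cell Ranger 1.3.1 and mm10, per the submitters' processing notes, and how reads were counted is not given in the sources used here. Depth per cell was 1055 to 39865 UMIs (median 4425).

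Counts were summed over cells and given as UMIs per 1000000 (CPM), with exact Poisson 95% intervals; shares have Clopper-Pearson intervals. Folds are ratios of sums, with a group at 0 set to 3 counts. Genes needed 20 CPM (members against others) or 50 CPM (subsets). Named genes were those of the rule and markers, the 20 largest folds at 100 CPM or more, the 15 largest each way between subsets, and genes of fixed lists. Members and lists were chosen with earlier results of these data known. A run begins where the alphabetical order of barcodes restarts. Thinning drew 3000 UMIs per cell. Doublets were kept; Scrublet (scanpy 1.11.5), run per run, called 56 cells (0.474%) by its own threshold, too few to have worked, so the alternative removed the 193 highest scores, 3 of them members. Of the list genes, 5 were not analysed here. The intervals were tested on simulated data. Alternatives changed the class II and C1q limits, depth, weighting, gene minimum and runs. The planned test of hyperoxia against air was not run. Tools were numpy 2.4.6, scipy 1.17.1 and pandas 2.3.3.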

Additional observations from a re-analysis of the deposited data

How the results depend on the processing

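The number of members was 126, 95 with a class II minimum of 60 UMIs, and 72 to 122 with 1 run left out. The share with Xcr1 or Clec9a was 69.8%, 54.9% after thinning to 3000 UMIs, and 67.3% to 77.8% with 1 run left out, highest without run 7. Of genes against all other cells, 173 were at least 4-fold higher and 849 lower; with a gene minimum of 100 CPM these were 70 and 215. Between the subsets, 238 were at least 2-fold higher and 307 lower; with a minimum of 100 CPM 104 and 130, and with 10 CPM 1059 and 1040. The higher count was 443 after thinning and 224 to 553 with 1 run left out, 553 without run 7. The other alternatives left these counts within 1.5 times. Folds were followed for the 20 and 30 genes with the largest folds, over the alternatives that gave a fold. Against other cells, 244 stayed within their counting interval and 56 moved out of it. Between the subsets these were 425 and 48, and 0 of all these folds changed direction. Between the subsets Dppa5a gave no fold with C1q at 0 UMIs, likely doublets removed or a higher Xcr1 and Clec9a minimum. It also gave none without the run of its richest cell, and Ccl5 none without run 1. Neither gave a fold without the cells richest in Ccr7 and Dppa5a. Their direction there was not assessed. Among all list and named genes past the fold limit, leaving out 1 run changed the direction of 0 of 186 against other cells and of 8 of 120 between the subsets, Apoe, Ccl4, Cd200, Cd44, Klrd1, Myd88, Tgfbr2 and Tmem176a. Leaving out the cell richest in Ccr7 and the cell richest in Dppa5a, and leaving out the richest cell of each gene, were chosen after seeing the data. No paired analysis was possible because the columns carry no replicate numbers of the libraries. With 126 cells, genes near 1 UMI per group are not resolved. The cause of these shifts was not tested.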
